A study of Homo sapiens with 12 samples.

Results

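The genes described here encode the enzymes that turn glucose into lactate, HK2, GPI, PFKP, ALDOA, TPI1, GAPDH, PGK1, ENO1, PKM and LDHA. A gene probe belonged to the set when its transcript accession mapped to a listed gene in RefSeq. By this rule 12 of 34127 gene probes, of 9 of the 10 listed genes, were members. No probe's accession matched ALDOA, the aldolase of this pathway, and it has no value here. HK2, PFKP and LDHA had a pair of probes each and the other 6 genes had 1. The brightest probe over the arrays stood for a gene, and all 9 were well above background on all 12 arrays.

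Cytoplasmic RNA was taken from U2OS, a human osteosarcoma cell line, 48 h after transfection with 20 nM of control, DBP5, GLE1 or IPPK siRNA, and each RNA was hybridised to a one-colour whole human genome array. Every siRNA had 3 arrays, which the methods describe as independent experiments. Each slide held 1 array of every siRNA, with each siRNA always at the same position of the slide, so siRNA and position cannot be told apart. DBP5 is the RNA helicase encoded by DDX19B, GLE1 is the nuclear pore protein that stimulates it, and IPPK is the kinase that makes IP6, the cofactor of GLE1. All 4 groups share the transfection reagent, and all values come from 1 cell line, so nothing is known here of other cells.

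Glycolysis splits glucose into pyruvate in the cytosol. Hexokinase, phosphofructokinase and pyruvate kinase catalyse its largely irreversible steps, whereas the enzymes between them work close to equilibrium. Because the mRNAs of several of these enzymes are abundant in nearly every cell, GAPDH and PGK1 are in wide use as reference genes, to which other mRNAs are scaled in real-time PCR. For its real-time PCR of cytoplasmic and nuclear mRNA, the study states scaling to PGK1. The primers are shown because they define the reference transcript.
PGK1 forward primer: gttgcagacaagatccagctc
PGK1 reverse primer: gaagtgccaatctccatgttg

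Many glycolytic genes are transcribed through short sites for hypoxia-inducible factors, whose core is ACGTG or GCGTG, and through the E-box CACGTG that MYC can bind. Promoter windows of RefSeq (GRCh38.p14), each 300 bases long, were searched for these letters on both strands. Every CACGTG also holds ACGTG on each strand and counts for both motifs. A window of 8 of the 10 genes held ACGTG, against 24.9% of 27305 genes with a window. GCGTG was found for 7 of the 10 genes, against 40.6% of all genes. CACGTG was found for HK2, ALDOA, GAPDH and LDHA, against 8.77% of all genes. Over single windows the shares were 21.4%, 36.5% and 7.26% of 35116. A match describes letters only. The 250 bases before the start of LDHA, GAPDH and PGK1 are shown, because LDHA moved in opposite directions in GLE1 and IPPK knock-down cells and the other two are the reference genes. All 3 windows are on the plus strand, and capitals mark the cores on either strand.
LDHA, chr11:18394313-18394562: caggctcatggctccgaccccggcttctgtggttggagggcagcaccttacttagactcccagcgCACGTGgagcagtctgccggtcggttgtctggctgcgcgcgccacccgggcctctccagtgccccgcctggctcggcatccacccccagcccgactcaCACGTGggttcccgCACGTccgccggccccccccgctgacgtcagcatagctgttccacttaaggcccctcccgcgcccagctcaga
GAPDH, chr12:6535014-6535263: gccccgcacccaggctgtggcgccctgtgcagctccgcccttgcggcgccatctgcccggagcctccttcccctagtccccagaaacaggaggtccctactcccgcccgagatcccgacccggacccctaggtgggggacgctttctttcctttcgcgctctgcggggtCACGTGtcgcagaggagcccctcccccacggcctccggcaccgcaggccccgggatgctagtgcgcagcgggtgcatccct
PGK1, chrX:78103998-78104247: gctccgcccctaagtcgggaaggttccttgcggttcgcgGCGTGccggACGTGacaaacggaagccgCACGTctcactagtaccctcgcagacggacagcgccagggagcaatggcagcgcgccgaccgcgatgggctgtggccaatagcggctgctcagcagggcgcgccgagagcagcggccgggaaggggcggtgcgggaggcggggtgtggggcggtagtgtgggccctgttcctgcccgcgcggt
RefSeq gives LDHA another start, whose 250 bases (chr11:18396101-18396350) hold 1 core and no E-box and are not shown. In the stretches shown LDHA had 5 cores and 2 E-boxes, GAPDH had 2 cores that both lie in its E-box, and PGK1 had 3 cores and no E-box.

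The knock-downs and arrays were checked first. The log2 intensity of DDX19B was 10.15 to 10.23 in control and 6.20 to 6.25 in DBP5 knock-down cells, that of GLE1 was 8.26 to 8.32 and 4.72 to 5.40 in GLE1 knock-down cells, and that of IPPK was 9.32 to 9.47 and 6.94 to 7.05 in IPPK knock-down cells. IPPK mRNA also fell by 1.25 on the log2 scale in DBP5 knock-down cells, and DDX19B fell by 1.03 in GLE1 knock-down cells. In IPPK knock-down cells GLE1 changed by -0.48 and DDX19B by -0.19 (limma adjusted p = 0.0199 and 0.00776). The brightest IPPK probe changed by -1.25, -0.28 and -2.42 in DBP5, GLE1 and IPPK knock-down cells. The other IPPK probe gave -0.76, 1.06 and -1.01, so the direction in GLE1 knock-down cells depends on the probe. VIM, SPARC, COL1A1 and RUNX2, mesenchymal and osteoblast genes, were well above background on 12 arrays, whereas IBSP was on 0. EPCAM, KRT8 and PTPRC, markers of other cell types, were on 12 as well, and their part in the results was not tested. Of 4 RNAs known to stay in the nucleus, MALAT1, KCNQ1OT1 and MEG3 were well above background on 12 arrays and NEAT1 had no matched probe. The group means of log2 intensity in control, DBP5, GLE1 and IPPK knock-down cells were 8.53, 8.00, 8.20 and 7.45 for MALAT1, 12.38, 13.02, 13.22 and 12.60 for KCNQ1OT1, and 10.55, 10.47, 10.87 and 10.60 for MEG3. Nuclear RNA was thus measured in the cytoplasmic samples, and its part in the results was not tested. Between 70.9% and 77.7% of probes were well above background on an array, and the number of arrays limits the precision. In a bulk sample, fewer cells with an mRNA and less of it per cell cannot be told apart.

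The changes in the glycolytic genes did not run one way, and PFKP and GPI changed the most. Of the 9 genes, 2 were lower and 1 was higher in DBP5 knock-down cells, where 54.3% of all 20818 genes tested passed limma's test at an adjusted p of 0.05 (27.5% lower and 26.8% higher). In GLE1 knock-down cells 1 was lower and 4 were higher, against 62% of all genes (31.5% lower and 30.6% higher). In IPPK knock-down cells 3 were lower and 2 were higher, against 55.4% of all genes (28% lower and 27.3% higher). These counts over 9 genes are given beside the background as a description. With spike-in scaling 1 was lower and 1 higher in GLE1 knock-down cells, where 33% of all genes were lower and 14.6% higher, and likewise in IPPK knock-down cells, where 12.7% were lower and 23.8% higher. The median log2 change of the 9 genes was -0.01, 0.14 and 0.01 in DBP5, GLE1 and IPPK knock-down cells, and that of all genes was -0.02, 0.01 and -0.03. The DBP5 count was 5 without control replicate 3 and 6 without DBP5 replicate 1, and the GLE1 count was 3 without control replicate 1. A 1.5-fold change was passed by GPI in GLE1 knock-down cells and by PFKP in IPPK knock-down cells. The 3 comparisons share the control arrays.

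**Figure D1:**
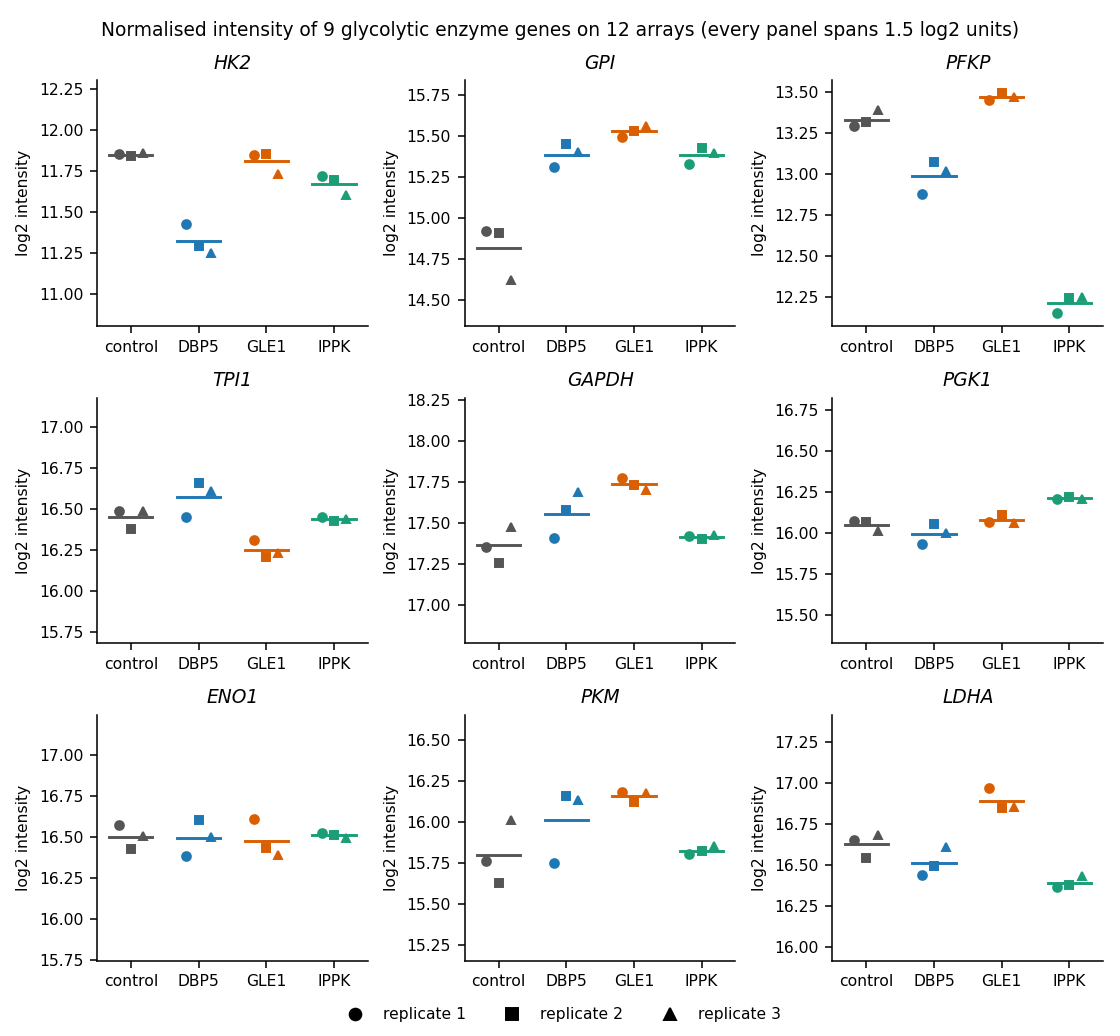
Normalised log2 intensity (vertical axis) of 9 glycolytic enzyme genes on each array by siRNA (horizontal axis), where symbols stand for the replicates, lines for group means, and every panel spans 1.5 log2 units. PFKP lies lowest on all 3 IPPK arrays, HK2 on all 3 DBP5 arrays and GPI on all 3 control arrays, whereas the ENO1 groups overlap.

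The calls depend on how the arrays are put on 1 scale. With the arrays scaled to the 10 added E1A spike-in RNAs, an alternative chosen after seeing the data, the median of all genes moved to -0.19 in GLE1 and 0.10 in IPPK knock-down cells. The share of calls that were lower was then 69.3% in place of 50.7% for GLE1, and 34.7% in place of 50.7% for IPPK. For GLE1 against DBP5, GLE1 against IPPK and DBP5 against IPPK it was 76.4%, 80.7% and 65.5%. Under this scale 14 of the 26 member calls over the 6 comparisons were lost, and the largest change among them was 0.50 on the log2 scale. Those against control are named with each gene below.

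HK2, the hexokinase that many tumour cells express, traps glucose in the cell as glucose 6-phosphate. Its log2 intensity was 11.85, 11.84 and 11.86 on the control arrays, 11.42, 11.29 and 11.25 on the DBP5 arrays, 11.85, 11.85 and 11.73 on the GLE1 arrays, and 11.72, 11.69 and 11.60 on the IPPK arrays. Every DBP5 array lay below every array of the other groups, and the IPPK arrays lay below the control arrays. HK2 fell by 0.53 ± 0.06 (log2, SE, n = 3 against 3) in DBP5 knock-down cells, to 0.693 of control (limma adjusted p = 2.75e-05). In IPPK knock-down cells it fell by 0.18 ± 0.06, to 0.883 of control (limma adjusted p = 0.0262). The IPPK call was lost without any single control array or IPPK replicate 3 and with spike-in scaling, where the difference was -0.01. In GLE1 knock-down cells the difference was -0.04 (95% interval -0.17 to 0.09). The other HK2 probe was well above background on only 8 arrays and differed from control by -0.17, -0.17 and -0.59 in DBP5, GLE1 and IPPK knock-down cells, so it does not show the fall in DBP5 knock-down cells (adjusted p = 0.587, limma over 25875 probes).

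GPI converts glucose 6-phosphate to fructose 6-phosphate. Log2 intensities were 14.92, 14.90 and 14.62 on the control arrays, 15.31, 15.45 and 15.40 on the DBP5 arrays, 15.49, 15.53 and 15.56 on the GLE1 arrays, and 15.33, 15.42 and 15.40 on the IPPK arrays. All 9 knock-down arrays lay above all control arrays, of which replicate 3 was the lowest. GPI was 1.49-fold, 1.64-fold and 1.48-fold higher than control in DBP5, GLE1 and IPPK knock-down cells (limma adjusted p = 0.000121, 1.65e-05 and 0.000122). It was the only 1 of the 9 genes to pass the test in every knock-down, and it passed with spike-in scaling too. By the methods' paired t-test, which they name for measurements other than the arrays, adjusted over all genes, the 3 calls were lost (adjusted p = 0.089, 0.0511 and 0.0748). The GLE1 arrays lay above all DBP5 and IPPK arrays, by 0.14 on average against either group (95% interval -0.03 to 0.32 for both), and neither difference passed. GLE1 against IPPK did pass in a fit of only the 6 arrays compared and by the methods' paired t-test (adjusted p = 0.0349 and 0.0366), whereas with spike-in scaling it was -0.20. DBP5 differed from IPPK by 0.00 (-0.17 to 0.18).

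PFKP, the platelet-type subunit of phosphofructokinase, had the largest change of the 9 genes. Its log2 intensity was 13.29, 13.32 and 13.39 on the control arrays, 12.88, 13.08 and 13.02 on the DBP5 arrays, 13.46, 13.49 and 13.47 on the GLE1 arrays, and 12.15, 12.24 and 12.25 on the IPPK arrays. The 4 groups did not overlap, with IPPK lowest, then DBP5, control and GLE1. PFKP fell by 1.12 ± 0.06 (log2, SE) in IPPK knock-down cells, to 0.461 of control (limma adjusted p = 1e-07). In DBP5 knock-down cells it fell by 0.34 ± 0.06, to 0.789 of control (limma adjusted p = 0.000591). The DBP5 difference was -0.31 with an adjusted p of 0.0898 with spike-in scaling. GLE1 knock-down cells were 1.10-fold above control, which missed the threshold (limma adjusted p = 0.0613). The GLE1 difference passed with the replicate number as a block (adjusted p = 0.0327), quantile normalization (0.0493), normexp (0.0154), the deposited processed values (0.00459), the mean of both probes (0.0143) and the 6 arrays alone (0.046), whereas with spike-in scaling it was -0.09. The other PFKP probe, of another transcript, differed from control by -0.35, 0.26 and -1.12 in DBP5, GLE1 and IPPK knock-down cells (adjusted p = 0.0018, 0.00916 and 3.59e-07, limma over 25875 probes).

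TPI1 interconverts the triose phosphates. Log2 intensities were 16.49, 16.38 and 16.49 on the control arrays, 16.46, 16.66 and 16.61 on the DBP5 arrays, 16.32, 16.21 and 16.24 on the GLE1 arrays, and 16.46, 16.43 and 16.44 on the IPPK arrays. The GLE1 arrays were the lowest 3 of the 12. TPI1 fell by 0.20 ± 0.06 (log2, SE) in GLE1 knock-down cells (limma adjusted p = 0.016), and the call was lost without control replicate 1 or 3 or GLE1 replicate 2. With spike-in scaling it was lower by more, at -0.42 (adjusted p = 0.0324). In DBP5 knock-down cells the difference was 0.12 (95% interval -0.01 to 0.26), and DBP5 replicate 1 was the lowest of that group. Without DBP5 replicate 1 it was 0.18 and passed (adjusted p = 0.0181). It also passed with quantile normalization of all arrays (0.16, adjusted p = 0.0423). TPI1 was the only 1 of the 9 genes with a lower value in GLE1 knock-down cells that passed the test.

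ENO1, the enolase that makes phosphoenolpyruvate, did not pass the test in any of the 6 comparisons. Its log2 intensity was 16.57, 16.42 and 16.51 on the control arrays, 16.38, 16.60 and 16.50 on the DBP5 arrays, 16.61, 16.43 and 16.39 on the GLE1 arrays, and 16.52, 16.51 and 16.50 on the IPPK arrays. All groups overlapped. Its group means spanned 0.03 on the log2 scale, and the 95% interval against control was -0.19 to 0.14 in GLE1 knock-down cells and equally wide in the others. With spike-in scaling the GLE1 difference was -0.24 (adjusted p = 0.245). PKM, the pyruvate kinase of most adult cells, rose 1.28-fold in GLE1 knock-down cells (limma adjusted p = 0.0201). Log2 intensities were 15.76, 15.63 and 16.01 on the control arrays, 15.75, 16.16 and 16.13 on the DBP5 arrays, 16.18, 16.12 and 16.18 on the GLE1 arrays, and 15.80, 15.82 and 15.85 on the IPPK arrays. The control and DBP5 arrays were spread the most, and the GLE1 call was lost without control replicate 1 or 2 or GLE1 replicate 1 or 3 and with spike-in scaling (0.14, adjusted p = 0.502). Without DBP5 replicate 1, the lowest of its group, PKM also passed in DBP5 knock-down cells (0.34, adjusted p = 0.0124).

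LDHA, the lactate dehydrogenase subunit that reduces pyruvate to lactate, moved in opposite directions. Its log2 intensity was 16.65, 16.54 and 16.68 on the control arrays, 16.44, 16.50 and 16.61 on the DBP5 arrays, 16.97, 16.85 and 16.85 on the GLE1 arrays, and 16.36, 16.38 and 16.43 on the IPPK arrays. The GLE1 arrays lay above and the IPPK arrays below all control arrays. LDHA was 1.20-fold higher in GLE1 knock-down cells (limma adjusted p = 0.00364) and fell to 0.850 of control in IPPK knock-down cells (limma adjusted p = 0.00843). GLE1 knock-down cells had 1.41-fold more LDHA signal than IPPK knock-down cells (limma adjusted p = 4.8e-05). The other LDHA probe gave 1.54-fold for the same comparison, 0.38 for GLE1 and -0.24 for IPPK against control on the log2 scale. Both calls against control were lost with spike-in scaling, where the differences were 0.05 and -0.14, and so was that of GLE1 against IPPK, at 0.18 (adjusted p = 0.319).

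**Figure D2:**
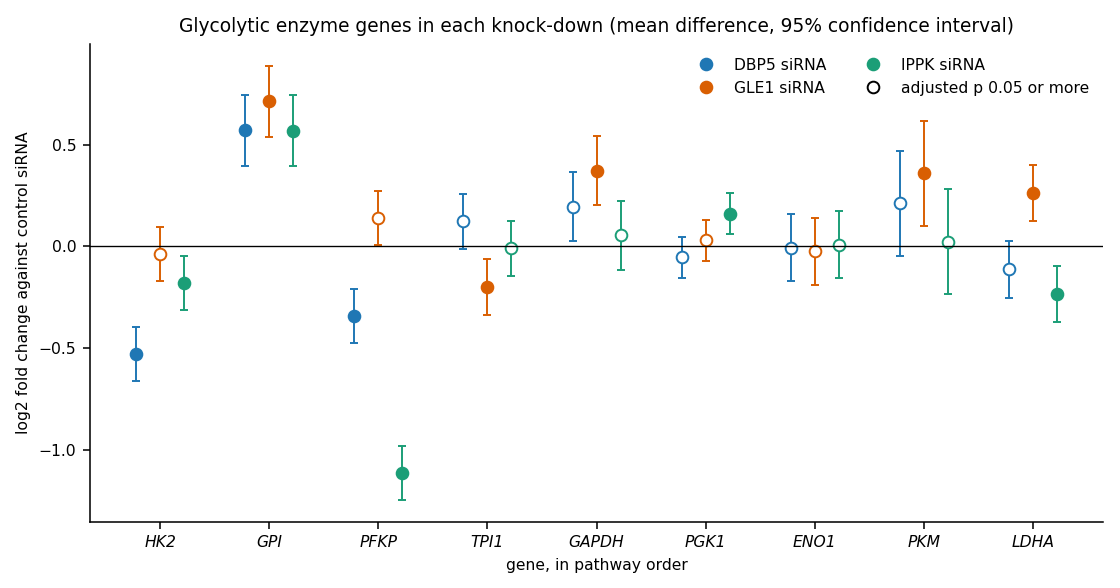
Log2 fold change against control siRNA (vertical axis) of each glycolytic enzyme gene in pathway order (horizontal axis), with 95% confidence intervals from the fit over 12 arrays and filled points where the adjusted p was under 0.05. GPI lies above 0 in all 3 knock-downs, PFKP lies at -1.12 in IPPK knock-down cells, and the other changes are within 0.53 of 0.

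GAPDH, which oxidises glyceraldehyde 3-phosphate, passed the test against control only in GLE1 knock-down cells. Log2 intensities were 17.36, 17.26 and 17.48 on the control arrays, 17.41, 17.58 and 17.69 on the DBP5 arrays, 17.77, 17.73 and 17.70 on the GLE1 arrays, and 17.42, 17.40 and 17.43 on the IPPK arrays. The GLE1 arrays lay above all others, and the DBP5 and IPPK arrays overlapped the control arrays. GAPDH was 1.29-fold higher than control in GLE1 knock-down cells (limma adjusted p = 0.00147). The difference was 0.19 (95% interval 0.02 to 0.36, adjusted p = 0.0533) in DBP5 and 0.05 (-0.12 to 0.22) in IPPK knock-down cells. The DBP5 difference passed without control replicate 3 or DBP5 replicate 1 (adjusted p = 0.0254 and 0.00778), and also with quantile normalization, normexp, the deposited processed values and a filter on all 12 arrays (adjusted p = 0.033, 0.0419, 0.0357 and 0.0458). With spike-in scaling the GLE1 difference was 0.16 (adjusted p = 0.374). By the methods' paired t-test, adjusted over all genes, the GLE1 call was lost too (adjusted p = 0.0714). The array carries 10 spots of this probe, whose log2 values had an SD of 0.04 to 0.14 within an array, and no spot was saturated. GAPDH, TPI1, ENO1, PGK1 and LDHA have processed pseudogenes, and whether their RNA adds to the probes was not tested.

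PGK1, which makes the first ATP of the pathway, had log2 intensities of 16.07, 16.07 and 16.01 on the control arrays, 15.93, 16.05 and 16.00 on the DBP5 arrays, 16.07, 16.11 and 16.06 on the GLE1 arrays, and 16.21, 16.22 and 16.21 on the IPPK arrays. The IPPK arrays lay above all others. PGK1 was 1.12-fold higher than control in IPPK knock-down cells (limma adjusted p = 0.0112). The differences were -0.05 (95% interval -0.15 to 0.05) in DBP5 and 0.03 (-0.07 to 0.13) in GLE1 knock-down cells. The IPPK call was lost with scaling to the 75th percentile, normexp background correction, the deposited processed values and spike-in scaling (adjusted p = 0.088, 0.0572, 0.0613 and 0.157). The log2 differences were then 0.10, 0.13, 0.12 and 0.27, against 0.16 in the main fit. With spike-in scaling the difference was thus larger, and its SE was 0.14 in place of 0.05. The SD over its 10 spots was 0.02 to 0.06 within an array.

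The ratio of both reference genes on the same array does not depend on a scale factor of the array. GAPDH minus PGK1 on the log2 scale was 1.28, 1.19 and 1.46 on the control arrays, 1.47, 1.52 and 1.69 on the DBP5 arrays, 1.70, 1.62 and 1.64 on the GLE1 arrays, and 1.22, 1.18 and 1.22 on the IPPK arrays. Only the change of this difference between groups has a meaning, since the probes differ. The DBP5 and GLE1 arrays lay above the control arrays without overlap, and the IPPK arrays overlapped them. GAPDH relative to PGK1 was 1.27-fold higher in GLE1 (limma adjusted p = 0.00297) and 1.19-fold higher in DBP5 knock-down cells (adjusted p = 0.0209), and the difference was -0.11 in IPPK knock-down cells (adjusted p = 0.264). The DBP5 call was lost without control replicate 1 or 2 or DBP5 replicate 3, and in a fit of only the 6 arrays compared (adjusted p = 0.0853). GLE1 was above IPPK by 0.45 (adjusted p = 0.000515) and DBP5 above IPPK by 0.36 (adjusted p = 0.00299). With spike-in scaling GAPDH relative to PGK1 was 0.24, 0.35 and -0.13 in DBP5, GLE1 and IPPK knock-down cells, with the same calls.

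**Figure D3:**
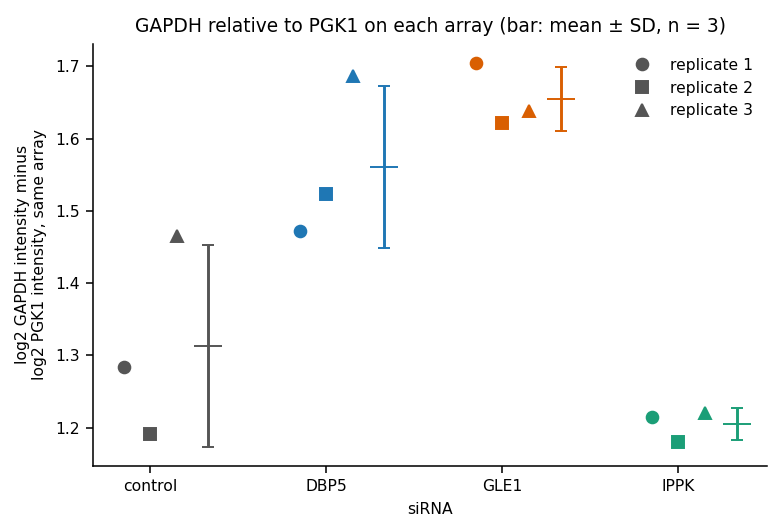
Log2 intensity of GAPDH minus that of PGK1 on the same array (vertical axis) by siRNA (horizontal axis), with symbols for replicates and the bar for the mean ± SD of 3 arrays. The GLE1 arrays sit at 1.62 to 1.70 and the IPPK arrays at 1.18 to 1.22, with the control arrays at 1.19 to 1.46.

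The choice of reference gene moved the calls. Relative to PGK1, 4 of the other 8 genes were lower and 1 was higher in IPPK knock-down cells, where 40.1% of all genes were lower and 19.4% higher. Relative to GAPDH it was 2 lower and 1 higher, with 26.8% of all genes lower and 20.7% higher. In GLE1 knock-down cells 1 was lower and 4 were higher relative to PGK1, where 32.2% of all genes were lower and 28.1% higher. Relative to GAPDH 5 were lower and 1 was higher, where 50.3% of all genes were lower and 13.7% higher. In DBP5 knock-down cells 2 were lower and 3 higher relative to PGK1 (23.9% and 29.3% of all genes), and 4 were lower and 1 higher relative to GAPDH (36.2% and 15.2%). LDHA in GLE1 knock-down cells was 1.18-fold higher relative to PGK1 (adjusted p = 0.0143), and PFKP was 0.852 of control relative to GAPDH (adjusted p = 0.0225). GPI was higher relative to either gene in every knock-down, by 1.27-fold to 1.61-fold.

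Both genes were set beside 17 other genes in common use as references. The range of the 4 group means was 0.21 on the log2 scale for PGK1 (1.16-fold) and 0.37 for GAPDH (1.29-fold). Of 18423 genes well above background on all arrays, 7.70% had a smaller range than PGK1 and 22.6% a smaller range than GAPDH. The median range was 0.68, and 0.46 in the 1842 brightest. In order of range among the 19 reference genes, PGK1 ranked 3 and GAPDH 8. PPIA, the cyclophilin A gene, had the smallest at 0.10 and ACTB was next at 0.21. By the mean SD of the log2 ratio to the other references, GAPDH ranked 7 and PGK1 9, and RPLP0, a ribosomal protein gene, and PPIA had the smallest values, both at 0.27. These ranks rest on the brightest probes. A dimmer PPIA probe gave log2 changes of -0.19, 0.40 and -0.10 in DBP5, GLE1 and IPPK knock-down cells. The remaining PPIA probes lay between -0.04 and 0.14. The other RPLP0 probe gave 0.12, 0.27 and -0.20. The order of GAPDH and PGK1 is set by the scale, because with spike-in scaling the range was 0.19 for GAPDH and 0.46 for PGK1.

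Several genes in use as references moved by over 1.5-fold. YWHAZ, a 14-3-3 adaptor protein gene, had a range of 2.86, with log2 changes of 2.09, 2.86 and 2.49 in DBP5, GLE1 and IPPK knock-down cells. Its other probe gave 0.23, 1.07 and 0.58, a range below that of PFKP, so its size and its place among the genes depend on the probe. HPRT1, of purine salvage, fell by 1.05 in IPPK, 0.46 in DBP5 and 0.42 in GLE1 knock-down cells, and POLR2A, the large subunit of RNA polymerase II, was higher by 0.76 in GLE1 and 0.97 in IPPK and lower by 0.26, a log2 change of -0.26, in DBP5 knock-down cells. TBP and GUSB passed as lower in all 3 knock-downs, by 0.67 and 0.67 in DBP5 knock-down cells, although with spike-in scaling GUSB and TUBB missed the threshold in IPPK knock-down cells (-0.24 and -0.31, adjusted p = 0.182 and 0.0904) and POLR2A in DBP5 knock-down cells (-0.23, adjusted p = 0.302). TUBB fell by 0.72 in GLE1 and 0.44 in IPPK knock-down cells.

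**Figure D4:**
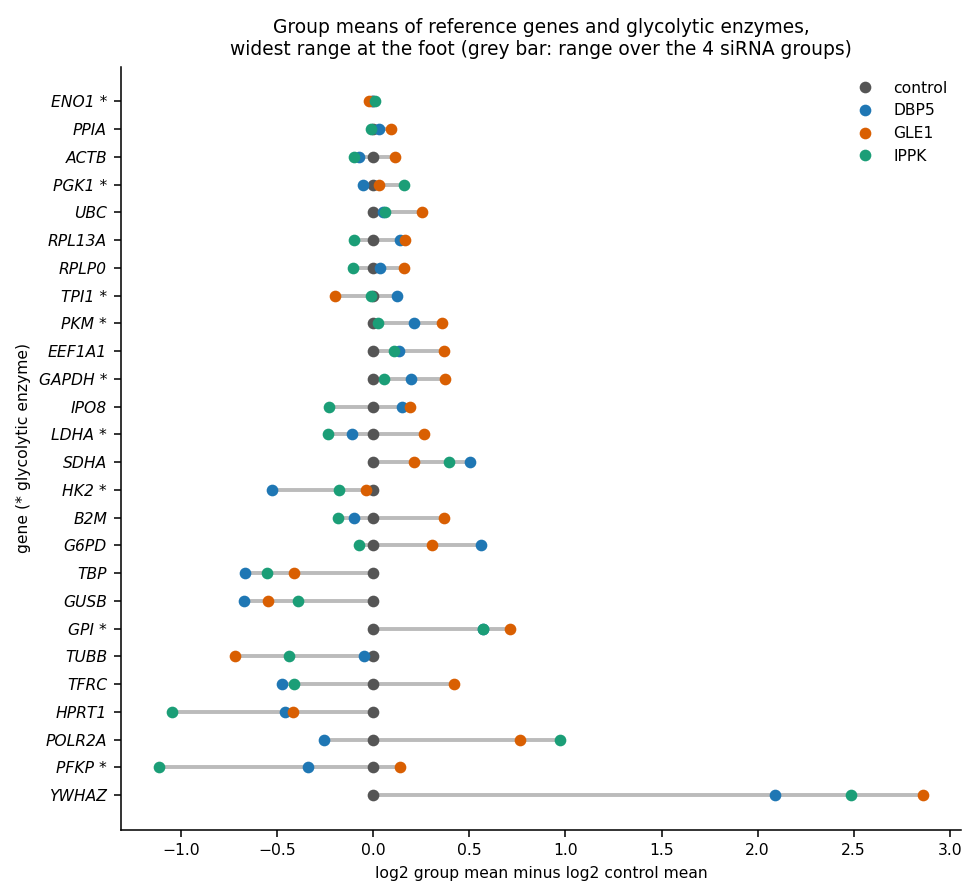
Group mean minus control mean on the log2 scale (horizontal axis) for 19 reference genes and the glycolytic enzymes, marked by asterisks (vertical axis), where the grey bar is the range over the 4 siRNA groups. ENO1 spans 0.03, PGK1 0.21, GAPDH 0.37 and YWHAZ 2.86; the DBP5 point of GPI lies behind its IPPK point.

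The rest of the pathway was read from a list of 32 isoenzymes, glucose and lactate transporters and regulators, of which 28 were tested and HK3, PFKFB1, GAPDHS and PGK2 were not. In DBP5 knock-down cells 10 were lower and 6 higher, in GLE1 knock-down cells 8 and 12, and in IPPK knock-down cells 7 and 9 of the 28. Of all 20818 genes 27.5% were lower and 26.8% higher in DBP5 knock-down cells. The shares were 31.5% and 30.6% in GLE1, and 28% and 27.3% in IPPK knock-down cells. The counts are given beside them as a description. The median log2 changes of the 28 genes were -0.07, 0.18 and -0.08. TIGAR, a phosphatase that lowers fructose 2,6-bisphosphate and so slows glycolysis, was 2.79-fold, 8.13-fold and 4.09-fold higher in DBP5, GLE1 and IPPK knock-down cells. PFKM, the muscle-type phosphofructokinase subunit, was 4.16-fold, 3.47-fold and 3.84-fold higher. PFKFB2 and PFKFB3, which make fructose 2,6-bisphosphate, fell by 1.59 and 0.77 in GLE1 knock-down cells on their brightest probes, but their other probes gave 0.62 and 0.46, so no direction can be given.

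Of the transporters, SLC2A1, the main glucose carrier of growing cells, was 2.63-fold higher in GLE1 and 1.38-fold higher in IPPK knock-down cells, and differed by 0.04 in DBP5 knock-down cells. SLC2A3, a high-affinity glucose carrier, was 2.16-fold higher in GLE1 knock-down cells and fell by 1.34 in DBP5 and 0.69 in IPPK knock-down cells. SLC2A4, the insulin-responsive carrier, fell by 2.20 in GLE1, 0.75 in DBP5 and 0.49 in IPPK knock-down cells. SLC16A3, which exports lactate, passed as lower in each knock-down, at 0.514, 0.510 and 0.381 of control, and SLC16A1, another lactate carrier, fell by 0.90 in DBP5 and was 1.44-fold higher in GLE1 knock-down cells. PDK1, the kinase that shuts off pyruvate dehydrogenase, was 2.54-fold higher in IPPK and 1.43-fold higher in GLE1 knock-down cells. Under spike-in scaling the GLE1 effects of PDK1, SLC16A1 and ADPGK were not called (adjusted p = 0.205, 0.154 and 0.87), nor were the IPPK effects of SLC2A4 and PGM1 (-0.42 and 0.36, adjusted p = 0.0832 and 0.0685) and the DBP5 effect of ENO2 (-0.46, adjusted p = 0.0543). Of the isoenzymes, HKDC1 was higher in every knock-down on its brightest probe, and by 1.29 in GLE1 knock-down cells. Its other probe gave 0.03, 0.45 and 0.30 in DBP5, GLE1 and IPPK knock-down cells. Only the GLE1 value of that probe passed limma's test with each probe on its own. The HKDC1 calls in DBP5 and IPPK knock-down cells thus rest on the brightest probe. ENO2 and ENO3 fell by 1.12 and 0.81 in IPPK and by 0.50 and 0.67 in DBP5 knock-down cells, and ENO3 fell by 0.15 in GLE1 knock-down cells. LDHC fell by 0.69 in GLE1 and 0.56 in DBP5 knock-down cells. PGM1, which leads glycogen sugar into the pathway, was higher by 1.18 in GLE1, 0.75 in DBP5 and 0.21 in IPPK knock-down cells. ADPGK, which phosphorylates glucose with ADP, fell by 0.51 in DBP5 and 0.74 in IPPK knock-down cells.

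**Figure D5:**
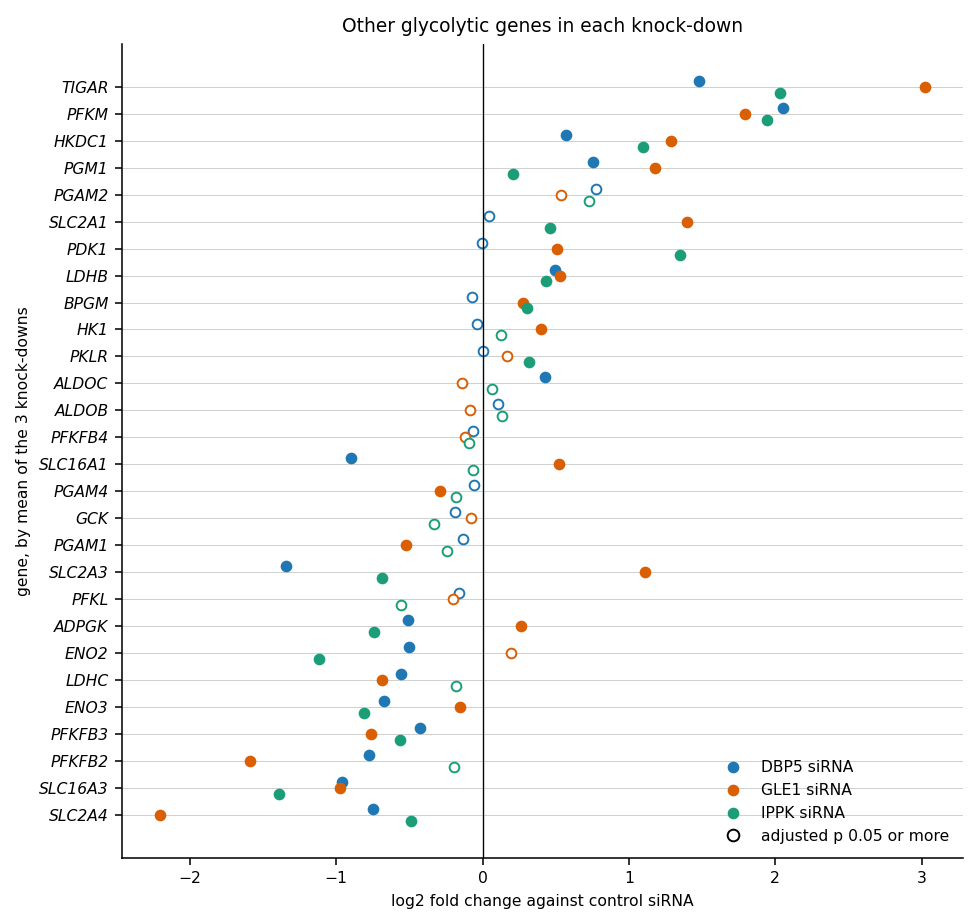
Log2 fold change against control siRNA (horizontal axis) of 28 other glycolytic genes (vertical axis) in DBP5, GLE1 and IPPK knock-down cells, with filled points where the adjusted p was under 0.05. TIGAR reaches 3.02 and PFKM lies at 1.80 to 2.06 in the 3 knock-downs, and SLC2A4 lies at -2.20 in GLE1 knock-down cells.

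Between the knock-downs, GLE1 against IPPK had the most member calls, with 2 lower and 4 higher of 9, where 60.2% of all genes passed (30.8% lower and 29.4% higher). PFKP was 2.39-fold, LDHA 1.41-fold, PKM 1.26-fold and GAPDH 1.25-fold higher in GLE1 knock-down cells, and PGK1 and TPI1 were lower, at 0.913 and 0.877. The count was 3 with spike-in scaling and 3 without IPPK replicate 1 or 3. With the replicate block HK2 passed as well (0.14, adjusted p = 0.0384). The methods' paired t-test, adjusted over all genes, called 8 of the 9 and 10204 of all 20818 genes. The calls lost with spike-in scaling were those of LDHA, PKM and GAPDH. The PKM call was lost without any single one of the 6 arrays compared. The PGK1 call was lost without any of them but GLE1 replicate 2, and with scaling to the 75th percentile, normexp and the deposited processed values (adjusted p = 0.0913, 0.0564 and 0.0534), and the TPI1 call without GLE1 replicate 2 or 3 or IPPK replicate 1 or 3. GLE1 against DBP5 had 1 lower and 3 higher (54.6% of all genes, 28% lower and 26.5% higher), with HK2 1.40-fold, PFKP 1.40-fold and LDHA 1.30-fold higher and TPI1 at 0.800. Under spike-in scaling the calls of HK2, PFKP and LDHA were lost (adjusted p = 0.302, 0.217 and 0.436), which left 1. DBP5 against IPPK had 2 lower and 1 higher (48.9% of all genes, 25.1% lower and 23.8% higher), with PFKP 1.71-fold higher and HK2 and PGK1 at 0.785 and 0.862. The PGK1 call was lost with spike-in scaling (adjusted p = 0.112), although the log2 difference was larger there, at -0.31 in place of -0.21. The count was 6 without DBP5 replicate 1, which had the lowest value of its group for every member but HK2. The mean of both HK2 probes differed by 0.04 between DBP5 and IPPK knock-down cells (adjusted p = 0.834), so the HK2 call rests on the brighter probe. With that mean, HK2 in GLE1 against DBP5 knock-down cells lost its call too (adjusted p = 0.0933).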

How the data were processed

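Cytoplasmic RNA of U2OS cells was labelled with Cy3 and hybridised to 12 Agilent 4x44K v2 arrays, 3 for each of the control, DBP5, GLE1 and IPPK siRNAs. The sample titles gave the group and the replicate number. The deposited scanner files hold spot intensity after background subtraction and detrending by Feature Extraction 10.7.3.1, per the file headers, with no normalization between arrays. A deposited table holds log2 values of the same arrays that the authors normalized by LOESS regression in R; it served as an alternative, and its background setting is not given in the sources used here. RNA was extracted from a cytosolic fraction, whose purity was not measured here.

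For this report, log2 intensity was averaged over the spots of a probe without outlier spots and normalized by cyclic loess in limma 3.58.1 (R 4.3.3). Cyclic loess centres each array on the others and removes a shift common to all genes. Probes were named through their accession in RefSeq (26449 of 34127, 77.5%). Of 27522 genes, 20818 were kept, those called well above background in every replicate of 1 or more siRNAs. One model over the 12 arrays gave 6 comparisons with limma's moderated test, and p-values were adjusted over all genes by the Benjamini-Hochberg method at 0.05. The same model was fitted to values minus the log2 intensity of PGK1 or GAPDH on the array. Simulated data with 200 genes changed 2-fold among 20814 gave 84% to 91.5% of them back over the 6 comparisons, with 3 to 14 false calls. Replicate numbers mark the slide, and deviations from group means correlated at 0.315 to 0.545 between arrays of the same number (18 pairs) and at -0.333 to -0.016 otherwise (36 pairs), so they pair the arrays. Named genes are all members, the siRNA targets, and other glycolytic and reference genes that passed with at least a 1.5-fold change against control; PPIA, ACTB and RPLP0 were named for their rank, and B2M, TFRC, IPO8 and LDHB for their values, after these were seen. One gene of the planned reference list is not reported here, and counts and ranks are over the 19 others. The members and lists were chosen with earlier results of these data known. Alternatives were other scalings, normexp background correction (offset 50), the deposited log2 values, other filters and probe rules, the replicate block, the 6 arrays of a comparison alone, the methods' two-sided paired t-test, which they name for other measurements (the study's array lists were made by rank products), and leaving out each array. Scaling to 10 E1A spike-in probes and each probe on its own were added after seeing the data. Figures were drawn with matplotlib 3.10.9.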

Additional observations from a re-analysis of the deposited data

Results flagged for a closer look

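Some effects against control passed limma's test with opposite signs in a pair of knock-downs, and the difference between the knock-downs was tested in the same fit. LDHA was higher by 0.26 in GLE1 and lower by 0.23 in IPPK knock-down cells, as log2 differences of 0.26 and -0.23, and GLE1 exceeded IPPK by 0.498 (adjusted p = 4.8e-05, all GLE1 arrays above all IPPK arrays). With spike-in scaling the effects were 0.05 and -0.14 and their difference was 0.18 (adjusted p = 0.319), and none of these passed.

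SLC2A3, the high-affinity glucose carrier, changed by 1.11 in GLE1, -1.34 in DBP5 and -0.69 in IPPK knock-down cells, so that GLE1 exceeded DBP5 by 2.45 (adjusted p = 1.36e-08) and IPPK by 1.8 (adjusted p = 6.48e-08). All 3 effects passed with spike-in scaling too, at 0.89, -1.32 and -0.53, and the other SLC2A3 probe gave 0.61, -0.95 and -1.14. ADPGK, the ADP-dependent glucokinase, changed by 0.26 in GLE1, -0.51 in DBP5 and -0.74 in IPPK knock-down cells. GLE1 exceeded DBP5 by 0.775 (adjusted p = 2.51e-07) and IPPK by 1.01 (adjusted p = 2.95e-08). With spike-in scaling the GLE1 effect of ADPGK was 0.04 (adjusted p = 0.87). SLC16A1, a lactate carrier, changed by 0.53 in GLE1 and -0.90 in DBP5 knock-down cells, and GLE1 exceeded DBP5 by 1.42 (adjusted p = 3.4e-07). With spike-in scaling its GLE1 effect was 0.30 (adjusted p = 0.154).

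Of the 19 reference genes, 4 had such opposite effects. In the comparisons with control 54.3% to 62% of all genes passed. The share of all genes with opposite effects is not given here, so the count is a description only. POLR2A changed by 0.76 in GLE1, 0.97 in IPPK and -0.26 in DBP5 knock-down cells, so GLE1 exceeded DBP5 by 1.02 (adjusted p = 8.76e-08) and DBP5 differed from IPPK by -1.23 (adjusted p = 5.32e-08). Under spike-in scaling its DBP5 effect was -0.23 (adjusted p = 0.302). TFRC, the transferrin receptor gene, changed by 0.42 in GLE1, -0.48 in DBP5 and -0.41 in IPPK knock-down cells, and GLE1 exceeded them by 0.899 and 0.835 (adjusted p = 1.59e-05 and 2.27e-05). B2M, the light chain of class I MHC, differed by 0.551 between GLE1 and IPPK knock-down cells (0.37 and -0.18 against control, adjusted p = 2.6e-05), and IPO8, a nuclear import receptor gene, by 0.424 (0.19 and -0.23 against control, adjusted p = 0.000631). Under spike-in scaling the GLE1 effects of TFRC, B2M and IPO8 were 0.19, 0.14 and -0.05, and their IPPK effects were -0.27, -0.06 and -0.06, and none of these passed (adjusted p = 0.362, 0.456 and 0.815 for GLE1, 0.218, 0.795 and 0.764 for IPPK). The GLE1 effect of IPO8, with a limma adjusted p of 0.0492, was also lost with other scalings. It was 0.15 with scaling to the 75th percentile and 0.18 with quantile normalization (adjusted p = 0.135 and 0.0659).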

How the results depend on the processing

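Of the 26 member calls, 17 were kept under every alternative other than spike-in scaling and the paired t-test, and 8 also with spike-in scaling. No reversed value passed the threshold. The replicate block ended no member call, and it added PFKP in GLE1 against control (0.14, adjusted p = 0.0327) and HK2 in GLE1 against IPPK (0.14, adjusted p = 0.0384); the counts with the block were 3, 6 and 5 members in DBP5, GLE1 and IPPK against control. Counts of members passing were 3, 5, 5, 4, 6 and 3 in DBP5, GLE1 and IPPK against control, GLE1 against DBP5, GLE1 against IPPK and DBP5 against IPPK. Quantile normalization gave 5 for DBP5 against control. Spike-in scaling gave 2 for GLE1 and 2 for IPPK against control, 1 for GLE1 against DBP5 and 3 for GLE1 against IPPK. The paired t-test called 3, 5 and 5 of 9 at the unadjusted threshold in DBP5, GLE1 and IPPK against control, and after Benjamini-Hochberg adjustment 1, 1 and 2, with 2 in GLE1 against DBP5, 8 in GLE1 against IPPK and 2 in DBP5 against IPPK, and 9 rather than 16 other glycolytic genes in DBP5 against control. Of all 20818 genes it called 9617, 12199 and 10788 against control before adjustment and 5047, 9816 and 7631 after it, with 5309, 10204 and 3950 in the other 3 comparisons. Beside the GPI calls, the adjusted paired t-test ended PFKP in DBP5, GAPDH, PKM and LDHA in GLE1, and HK2 and LDHA in IPPK against control. Their adjusted p-values were 0.0678, 0.0714, 0.11, 0.0603, 0.0879 and 0.0571 in this order. Leaving out single arrays gave 3 to 6, 3 to 4, 4 to 5, 4 to 5, 3 to 4 and 3 to 6 members in the same order of comparisons. The causes were not tested.

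GAPDH relative to PGK1 in DBP5 against control, at 0.25, lost its call in the fit of the 6 arrays (0.25, adjusted p = 0.0853), by the paired t-test (0.25, adjusted p = 0.0885) and within a leave-one-out range of 0.18 to 0.32; in GLE1 it was lost by the paired t-test (0.34, adjusted p = 0.095). The range of group means moved to 0.19 for GAPDH and 0.46 for PGK1 with spike-in scaling, and to 0.18 for PGK1 with normexp.

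All reversed log2 differences but 1 belong to values that had not passed. HK2 in DBP5 against IPPK, which had, was 0.035 as the mean of both probes (adjusted p = 0.834). With spike-in scaling the values were -0.090 for PFKP and -0.19 for PGK1 in GLE1 and 0.092 for TPI1 in IPPK against control, -0.094 for GPI, -0.028 for GAPDH, -0.14 for PGK1 and -0.080 for PKM in GLE1 against DBP5, -0.27 for HK2 and -0.20 for GPI in GLE1 against IPPK, and -0.10 for GPI in DBP5 against IPPK. With quantile normalization they were 0.034 for ENO1 in DBP5, -0.021 for PGK1 in GLE1, and 0.029 for TPI1 and -0.0055 for PKM in IPPK against control. With scaling to the 75th percentile they were -0.028 for GAPDH, -0.057 for ENO1 and -0.033 for PKM in IPPK against control, and 0.0088 and 0.0065 for ENO1 in GLE1 against DBP5 and IPPK. Normexp gave 0.066 for TPI1 in IPPK against control and -0.032 for GPI in DBP5 against IPPK, and the deposited log2 values gave 0.074 and -0.025 for these and -0.0029 for PGK1 in GLE1 against control. Leaving out single arrays turned ENO1 in all 6 comparisons, with ranges of -0.059 to 0.050, -0.090 to 0.017 and -0.031 to 0.044 in DBP5, GLE1 and IPPK against control, -0.084 to 0.034 in GLE1 against DBP5, -0.098 to 0.0091 in GLE1 against IPPK and -0.068 to 0.042 in DBP5 against IPPK. It also turned TPI1 (-0.048 to 0.0087) and PKM (-0.063 to 0.13) in IPPK against control and GPI in DBP5 against IPPK (-0.031 to 0.041).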

Other observations

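LDHB, the lactate dehydrogenase subunit that favours the oxidation of lactate, lay outside the naming rule for size and was chosen after its values were seen. LDHB had log2 intensities of 16.91, 16.94 and 17.00 on the control arrays, 17.41, 17.45 and 17.48 on the DBP5 arrays, 17.45, 17.49 and 17.50 on the GLE1 arrays, and 17.43, 17.37 and 17.37 on the IPPK arrays. All 9 knock-down arrays lay above all control arrays. LDHB was 1.41-fold, 1.44-fold and 1.35-fold higher in DBP5, GLE1 and IPPK knock-down cells (limma adjusted p = 5.75e-06, 2.06e-06 and 1.34e-05), and its other probe gave log2 changes of 0.59, 0.64 and 0.47. With spike-in scaling the GLE1 difference was 0.32 and missed the threshold (adjusted p = 0.0546), whereas those of DBP5 and IPPK passed at 0.49 and 0.52.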
